A study of Mus musculus with 6 samples.

Results

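A set of 35 genes of DNA replication and mitosis was followed in LSK cells, a bone marrow population that lacks lineage markers, carries Sca-1 and Kit, and holds the hematopoietic stem and early progenitor cells. The members were found by their gene names in the array files, among 34821 names in all. There were 14 genes of S phase and 21 genes of the G2 and M phases, and 46 probes carried their names. RNA of sorted LSK cells came from wild-type mice (samples 1, 3 and 5) and from NIKaly/aly mice (samples 2, 4 and 6), and each sample was labelled with Cy3 and read on 1 Agilent mouse array. The aly allele makes the NF-kB inducing kinase, NIK, defective, and the stated purpose was to learn what the loss of this arm of NF-kB signalling does to the expression profile of stem cells. The labels give no age, sex or background strain, name no treatment of the mice, and do not say whether the 3 samples of a genotype came from separate animals. The p-values below therefore measure only the spread between these samples.

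Before a cell divides, the MCM2-7 helicase is loaded onto replication origins with the help of Cdc6 and Cdt1, is switched on in a complex that includes Gins2, and is followed by PCNA, the sliding clamp of the DNA polymerases. Ribonucleotide reductase (Rrm1, Rrm2) and thymidylate synthase (Tyms) supply the nucleotides. In G2 and mitosis, cyclins B and A with Cdk1, the Aurora and Polo kinases, the spindle checkpoint (Bub1, Bub1b, Ttk) and the spindle motors and binding proteins carry out division. E2F factors are known for driving S phase genes, and the DREAM and MuvB complexes for acting on G2 and M phase genes through CHR elements and CCAAT boxes. Most long-term stem cells rest outside the cycle, while the progenitors that make up most of an LSK sort divide often.

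The promoters of the 2 phases were set apart first, since they show how the members differ in sequence. Each RefSeq window (GRCm38.p6) ran from 250 bases before the gene's start to 50 bases after it, and 12 of the 14 S phase genes and 17 of the 21 G2 and M phase genes had one. Mcm4, Gins2, Ccna2, Aurkb, Kif20a and Tpx2 were not matched. An E2F motif (TTTCGCGC, TTTGGCGC, TTTCCCGC, TTTGCCGC or TTCCCGCC, on either strand; the first and second overlap where they face each other, and TTTCCCGC overlaps TTCCCGCC) was present in 8 of 12 S phase genes (66.7%), in 1 of 17 G2 and M phase genes (5.88%, Cdk1) and in 4.46% of 27025 genes with a window. The CHR motif (TTTGAA or TTCGAA, either strand) was present in 2 of 12 S phase genes (16.7%), 13 of 17 G2 and M phase genes (76.5%) and 21.7% of all genes. At least 1 CCAAT box (CCAAT, either strand) was present in 9 of 12 S phase genes, 88.2% of the G2 and M phase genes and 41.1% of all genes. Windows with 2 or more boxes were those of 6 of 12 S phase genes, 64.7% of the G2 and M phase genes and 13.3% of all genes. A match says only that these letters are in the window.

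**Figure D1:**
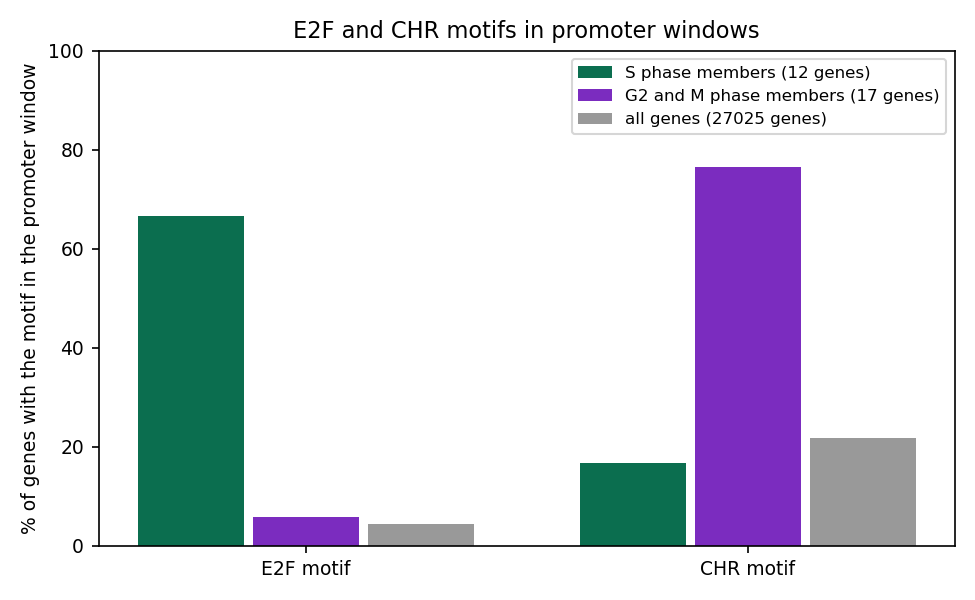
Share of genes (y axis, %) whose RefSeq promoter window holds an E2F or a CHR motif, for the S phase members, the G2 and M phase members and all genes with a window. E2F motifs were found in 66.7% of S phase members and CHR motifs in 76.5% of G2 and M phase members, against 4.46% and 21.7% of all genes.

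The 250 bases before the start are printed 5′ to 3′ along the gene for 4 members, with the motif matches in capitals. Mcm5 (chr8:75109259-75109508, plus strand) stands for the S phase pattern. Its run of capitals joins TTTCGCGC, beginning 153 bases before the start, and TTTGGCGC on the opposite strand, beginning 149 bases before it, and CCAAT boxes follow at 77 and 22 bases. Cdc20 (chr4:118437344-118437593, minus strand) stands for the G2 and M phase pattern, with CCAAT boxes at 53 and 8 bases and the CHR letters at 18 bases. Mki67 (chr7:135716380-135716629, minus strand) and Nusap1 (chr2:119618048-119618297, plus strand) are shown because their array values departed from those of the other members. The Mki67 window holds CHR letters at 116 and 98 bases and CCAAT boxes at 188, 166 (on the opposite strand) and 141 bases. None of the motifs searched is in the Nusap1 window. The windows of Birc5 and Tyms hold none of them either, so this is not particular to Nusap1. A link between these motifs and the array values was not tested.
Mcm5: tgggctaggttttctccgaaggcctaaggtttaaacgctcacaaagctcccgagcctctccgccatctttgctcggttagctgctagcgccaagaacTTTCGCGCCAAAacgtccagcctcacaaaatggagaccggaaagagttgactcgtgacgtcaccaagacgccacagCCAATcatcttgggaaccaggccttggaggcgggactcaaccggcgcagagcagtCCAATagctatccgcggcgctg
Cdc20: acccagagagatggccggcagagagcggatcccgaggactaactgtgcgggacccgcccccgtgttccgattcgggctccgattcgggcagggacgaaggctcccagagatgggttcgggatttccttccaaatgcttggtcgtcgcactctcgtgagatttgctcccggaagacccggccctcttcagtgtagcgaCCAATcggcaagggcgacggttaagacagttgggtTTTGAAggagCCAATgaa
Mki67: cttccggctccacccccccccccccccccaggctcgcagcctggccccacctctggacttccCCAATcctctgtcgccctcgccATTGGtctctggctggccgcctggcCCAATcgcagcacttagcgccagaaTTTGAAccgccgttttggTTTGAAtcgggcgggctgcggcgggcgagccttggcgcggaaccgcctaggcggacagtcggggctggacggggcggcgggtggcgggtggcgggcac
Nusap1: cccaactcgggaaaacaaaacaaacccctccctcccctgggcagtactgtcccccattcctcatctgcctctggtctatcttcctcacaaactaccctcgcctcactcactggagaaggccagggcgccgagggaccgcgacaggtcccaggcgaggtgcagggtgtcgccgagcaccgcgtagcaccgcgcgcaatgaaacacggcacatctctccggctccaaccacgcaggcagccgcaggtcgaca

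All levels below are log2 of the processed spot signal relative to the array's 75th percentile, so 0 is the signal of the spot at that percentile, and 1 unit is a doubling. Between 33.1% and 45.6% of 59305 spots per array were well above background. The 75th percentile signal ran from 47.0 to 225 intensity units, and no spot was saturated. With 3 arrays per genotype, their number limits the precision. The arrays lay on 1 slide, samples 1 to 4 in its first row and samples 5 and 6 in the second. Arrays of consecutive numbers (1 and 2, 3 and 4, 5 and 6) correlated at 0.975 to 0.989 over the tested genes, arrays of 1 genotype at 0.937 to 0.975 and the others at 0.929 to 0.970. The labels do not link consecutive numbers. Of the LSK marker list, 13 of 14 genes were tested, Slamf1 being too dim, and Kit, Ly6a (Sca-1), Cd34 and Flt3 were well above background on all 6 arrays. On bulk RNA, fewer cells of a type and less RNA per cell cannot be told apart.

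Of the 35 members, 32 passed the requirement of signal well above background on at least 3 of 6 arrays, all 14 of S phase and 18 of the G2 and M phases. Cdk1, the mitotic kinase itself, was not tested: its 3 probes were well above background on 2, 1 and 1 arrays. Aurkb, the kinase of the chromosomal passenger complex, had 1 probe, which was well above background on none of the 6 arrays. Cenpf, a kinetochore protein, had 1 probe above background on a single array, NIKaly/aly 4. Among the tested members, Tyms and Ttk were above background on 1 wild-type and 2 NIKaly/aly arrays and Cdc6 on 3 and 2. The other 29 were above it on all 6.

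No difference between the genotypes was detected in either phase. No member passed limma with Benjamini-Hochberg adjustment over 15682 genes (adjusted p = 0.99998 for each), and 0 of all genes did (0%). At an unadjusted p under 0.05 there were also 0 members, where 1.33% of all genes were. Of the S phase members, 7 read higher in NIKaly/aly and 7 lower, with a median difference of 0.00 (log2, NIKaly/aly minus wild type). Of the G2 and M phase members, 12 read higher and 6 lower, with a median of 0.11. Over all tested genes, 7611 read higher and 8071 lower, with a median of -0.008. The 95% intervals of single S phase members reached 0.73 to 1.57 to either side, and those of G2 and M phase members 0.57 to 1.31. These intervals are not adjusted for the number of genes. Under the adjusted threshold, changes larger than these could also go uncalled.

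**Figure D2:**
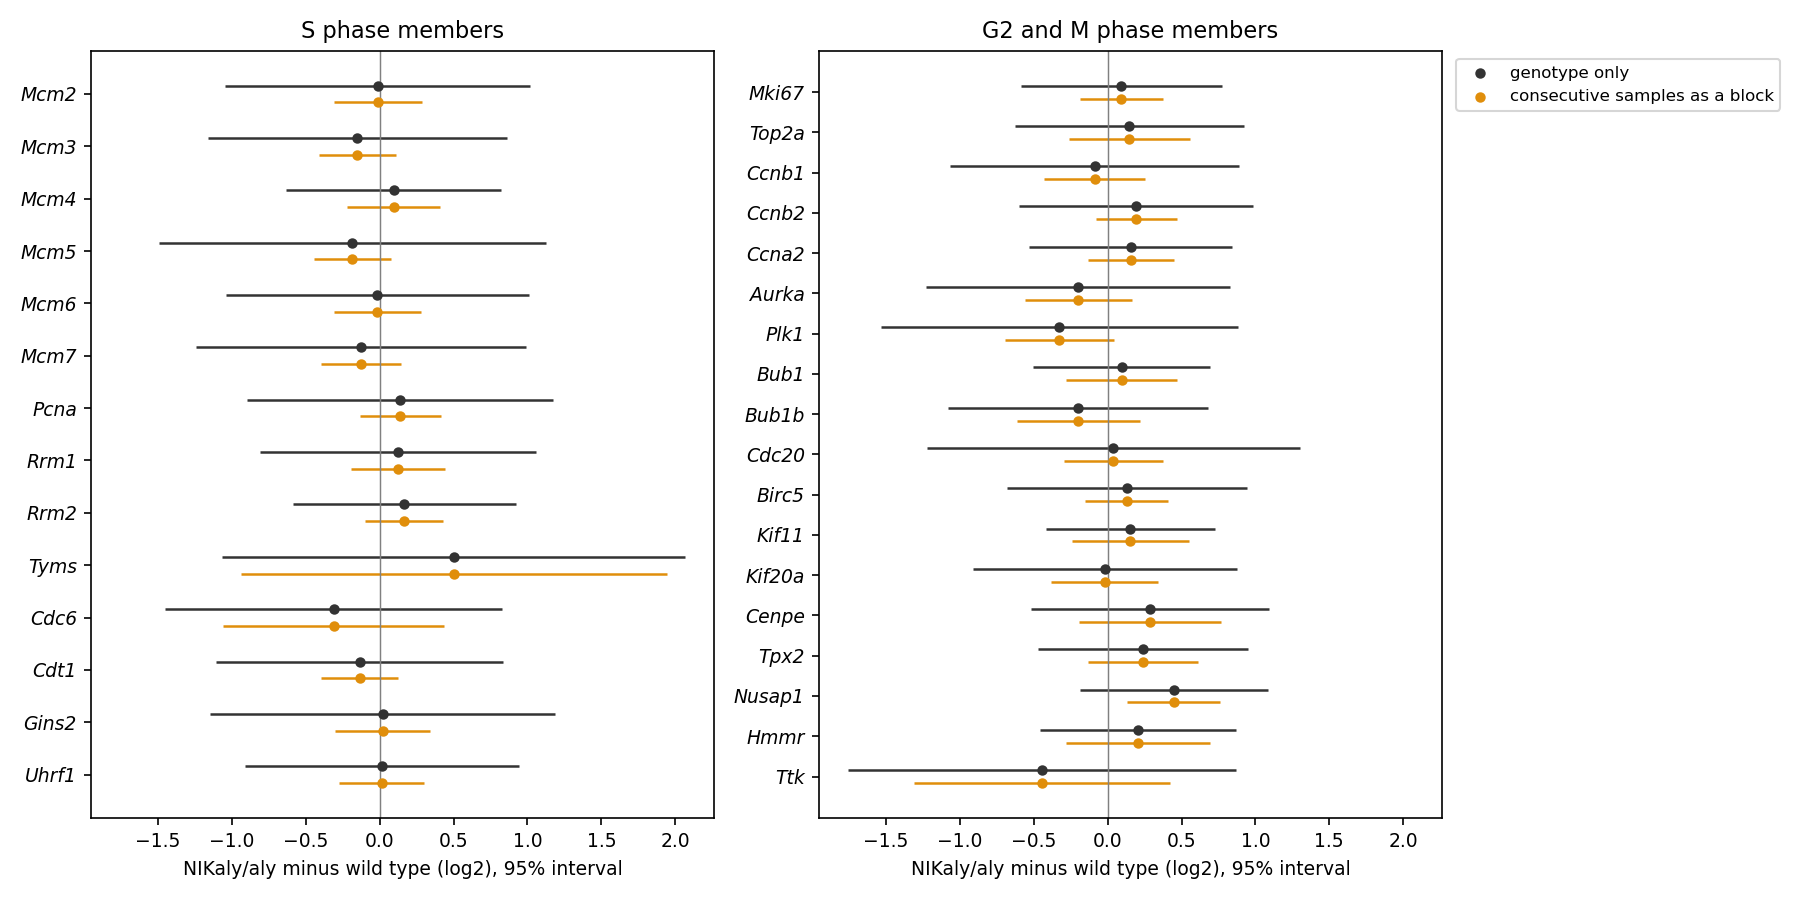
Difference between genotypes (x axis, log2, NIKaly/aly minus wild type) for the 14 S phase and 18 G2 and M phase members tested, 3 arrays per genotype. Points are the differences and bars their 95% intervals, in black from genotype alone and in orange with consecutive samples as a block; only the block interval of Nusap1, 0.13 to 0.76, leaves out 0.

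Of the helicase subunits, only Mcm4 read higher in NIKaly/aly. Mcm5 read 6.58, 5.13 and 4.91 in wild type (samples 1, 3 and 5) and 6.32, 4.98 and 4.77 in NIKaly/aly (samples 2, 4 and 6), at a probe lying at chr8:77651350-77651410 (mm9). The genotypes overlapped, and the difference was -0.18 ± 0.57 (SE, n = 3 and 3). Mcm3 read 6.52, 5.52 and 5.48 against 6.40, 5.41 and 5.26, a difference of -0.15 ± 0.44, and a second probe gave -0.20. In both genes the samples numbered 1 and 2 were far above the other 4, and each wild-type array was slightly above the NIKaly/aly array that follows it in number. Mcm6, at 8.32, 7.51 and 7.47 against 8.43, 7.33 and 7.49, differed by -0.02 ± 0.45, and Mcm2, at 4.25, 3.22 and 3.24 against 4.37, 3.02 and 3.28, by -0.01 ± 0.45. Mcm7 differed by -0.13 ± 0.49 and Mcm4 by 0.09 ± 0.32. The 6 subunits of the helicase therefore ranged from -0.18 to 0.09.

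Differences of the loading factors and the clamp ran from -0.31 (Cdc6) to 0.14 (Pcna). Cdt1, which brings the helicase to the origin, differed by -0.14 ± 0.42, and Gins2, part of the active helicase, by 0.02 ± 0.51. Pcna read 6.47, 5.51 and 5.53 in wild type and 6.77, 5.59 and 5.57 in NIKaly/aly, a difference of 0.14 ± 0.45. Samples 1 and 2 stood above the other 4, and the genotypes overlapped. Cdc6, the loading ATPase, was dim: -0.08, -0.67 and -0.62 in wild type against 0.07, -0.61 and -1.77, a difference of -0.31 ± 0.50. The low value of sample 6, where the probe was not well above background, carried that difference, and a second Cdc6 probe, above background on 3 arrays, had the opposite sign at 0.65. Uhrf1, which keeps DNA methylation on newly made strands, differed by 0.01 ± 0.40, and a second Uhrf1 probe, well above background on all 6 arrays, gave -0.22.

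Nucleotide supply gave the 2 S phase members that read most above wild type. Rrm2, the regulated subunit of ribonucleotide reductase, read 4.66, 3.96 and 4.08 in wild type and 4.83, 4.16 and 4.196 in NIKaly/aly, a difference of 0.17 ± 0.33. Its partner Rrm1 differed by 0.12 ± 0.41. Tyms read -3.57, -2.34 and -2.36 against -1.44, -1.998 and -3.32, a difference of 0.50 ± 0.68. All 6 Tyms values lay far below the 75th percentile, 3 of them were not well above background, and the genotypes overlapped widely, so its order is uncertain.

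In the G2 and M phases, the spindle protein Nusap1, which bundles microtubules near chromosomes, was the only member whose genotypes did not overlap. It read 3.12, 2.91 and 2.81 in wild type and 3.75, 3.14 and 3.28 in NIKaly/aly, at a probe lying at chr2:119475072-119475131 (mm9). The difference was 0.45 ± 0.28 (95% interval -0.19 to 1.08), which did not pass limma with Benjamini-Hochberg adjustment (unadjusted p = 0.144, adjusted p = 0.99998). The gap between the lowest NIKaly/aly and the highest wild-type array was small beside the spread within NIKaly/aly. Among all genes, 2.68% were higher in NIKaly/aly without overlap and 1.89% lower without overlap. The members gave 1 of 32 and 0 of 32, and the single gene is about what the background share would give.

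Other spindle and kinetochore genes overlapped. Tpx2, the activator of Aurora A, read 2.16, 1.90 and 1.78 against 2.68, 2.11 and 1.77, a difference of 0.24 ± 0.31. Hmmr, a microtubule-associated protein of the spindle, read 1.65, 2.20 and 2.33 against 2.39, 2.39 and 2.02, a difference of 0.20 ± 0.29. Cenpe, the kinetochore motor, read 2.96, 3.90 and 3.99 against 3.81, 4.19 and 3.72, a difference of 0.29 ± 0.35. For Hmmr and Cenpe the lowest array was wild-type sample 1, as it was for Tyms, while the other 13 S phase members had samples 1 and 2 above the rest. The motors Kif11 and Kif20a differed by 0.15 ± 0.25 and -0.02 ± 0.39, and Birc5 (survivin), of the passenger complex, by 0.13 ± 0.35. The other 2 Birc5 probes gave 0.06 and -0.13, the latter well above background on 3 arrays.

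Of 6 mitotic kinases, checkpoint genes and regulators of anaphase, 4 read lower in NIKaly/aly and 2 higher. Plk1, the Polo kinase, read 4.91, 3.54 and 3.33 in wild type and 4.35, 3.62 and 2.83 in NIKaly/aly, a difference of -0.33 ± 0.52. Aurka, the kinase of spindle poles, read 3.75, 2.89 and 2.71 against 3.65, 2.95 and 2.16, a difference of -0.20 ± 0.45. In both genes samples 1 and 2 were the highest and sample 6 the lowest. Cdc20, the activator of the anaphase-promoting complex, read 6.20, 4.58 and 4.51 against 5.93, 4.91 and 4.56, a difference of 0.04 ± 0.55. The checkpoint kinase Ttk was dim, at -1.27, -2.56 and -1.91 against -1.59, -2.80 and -2.69, a difference of -0.44 ± 0.57. Of its values 3 were not well above background. Bub1b differed by -0.20 ± 0.38 and Bub1 by 0.09 ± 0.26.

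Differences of the mitotic cyclins and proliferation markers ran from -0.09 to 0.19. Ccnb1 differed by -0.09 ± 0.43, Ccnb2 by 0.19 ± 0.34, Ccna2 by 0.16 ± 0.30 and Top2a, the topoisomerase that untangles sister chromosomes, by 0.15 ± 0.34. The other 2 probes of Ccnb1 gave -0.10 and -0.20. Mki67, which encodes the Ki-67 antigen, read 5.47, 5.93 and 5.94 in wild type and 5.76, 5.96 and 5.90 in NIKaly/aly, a difference of 0.09 ± 0.30. It was steady over samples 3 to 6 and lower in samples 1 and 2.

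Since arrays of consecutive number resembled each other, each NIKaly/aly array was also set against the wild-type array before it. The median differences of the S phase members were 0.13 (samples 1 and 2), -0.09 (3 and 4) and -0.02 (5 and 6), with 9, 4 and 6 of 14 higher. Those of the G2 and M phase members were 0.24, 0.10 and -0.007, with 11, 15 and 8 of 18 higher. The difference of samples 1 and 2 was the highest of the 3 in both sets. Among the members, 7 were higher in NIKaly/aly in all 3 comparisons (Pcna, Rrm2, Ccnb2, Ccna2, Birc5, Kif11 and Nusap1), where 13.8% of all genes were. Another 6 were lower in all 3 (Mcm3, Mcm5, Mcm7, Cdt1, Bub1b and Ttk), where 16.2% of all genes were. Together these were 13 of 32 members, where 30.1% of all genes kept 1 sign. With each array set to its median, which moves all genes of an array alike, the count was 1 of 32, where 14.8% of all genes kept 1 sign. With quantile normalization it was 16 of 32, where 30.8% of all genes did.

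With these consecutive samples as a block, which the labels do not supply, the intervals narrowed. They reached 0.26 to 1.44 to either side for S phase members and 0.27 to 0.87 for G2 and M phase members. Mcm2 then lay between -0.31 and 0.28, Mcm6 between -0.31 and 0.28 and Mcm5 between -0.44 and 0.08. No member passed limma with Benjamini-Hochberg adjustment under the block either, where 0.0128% of all genes did. At an unadjusted p under 0.05 the members gave 1, where 7.35% of all genes were. This was Nusap1, with a limma p of 0.0119 and, by Benjamini-Hochberg, an adjusted p = 0.451.

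The spread of the members over the 6 arrays was close to that of all genes, and most members shared an order of the arrays. From the lowest to the highest array, the S phase members spanned a median of 1.26 log2 units and the G2 and M phase members 1.08, against 1.21 over all genes. The median size of the difference between consecutive samples was 0.12 for S phase members, 0.15 for G2 and M phase members and 0.23 over all genes. Samples 1 and 2, of opposite genotype, were both above the other 4 arrays in 13 of 14 S phase members, the exception being Tyms. The same held for 13 of 18 G2 and M phase members: Top2a, Ccnb1, Ccnb2, Ccna2, Aurka, Plk1, Bub1, Bub1b, Cdc20, Birc5, Kif20a, Tpx2 and Ttk. Over all genes this order was met in 39.8%. The opposite order, samples 1 and 2 both below the others, was met in 16.8% of all genes, in no S phase member and in 1 G2 and M phase member, Mki67. A second Mki67 probe read 5.24, 5.61 and 5.52 in wild type and 5.52, 5.70 and 5.58 in NIKaly/aly, where sample 2 was not below sample 5. This order was noticed in these data and was not tested.

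**Figure D3:**
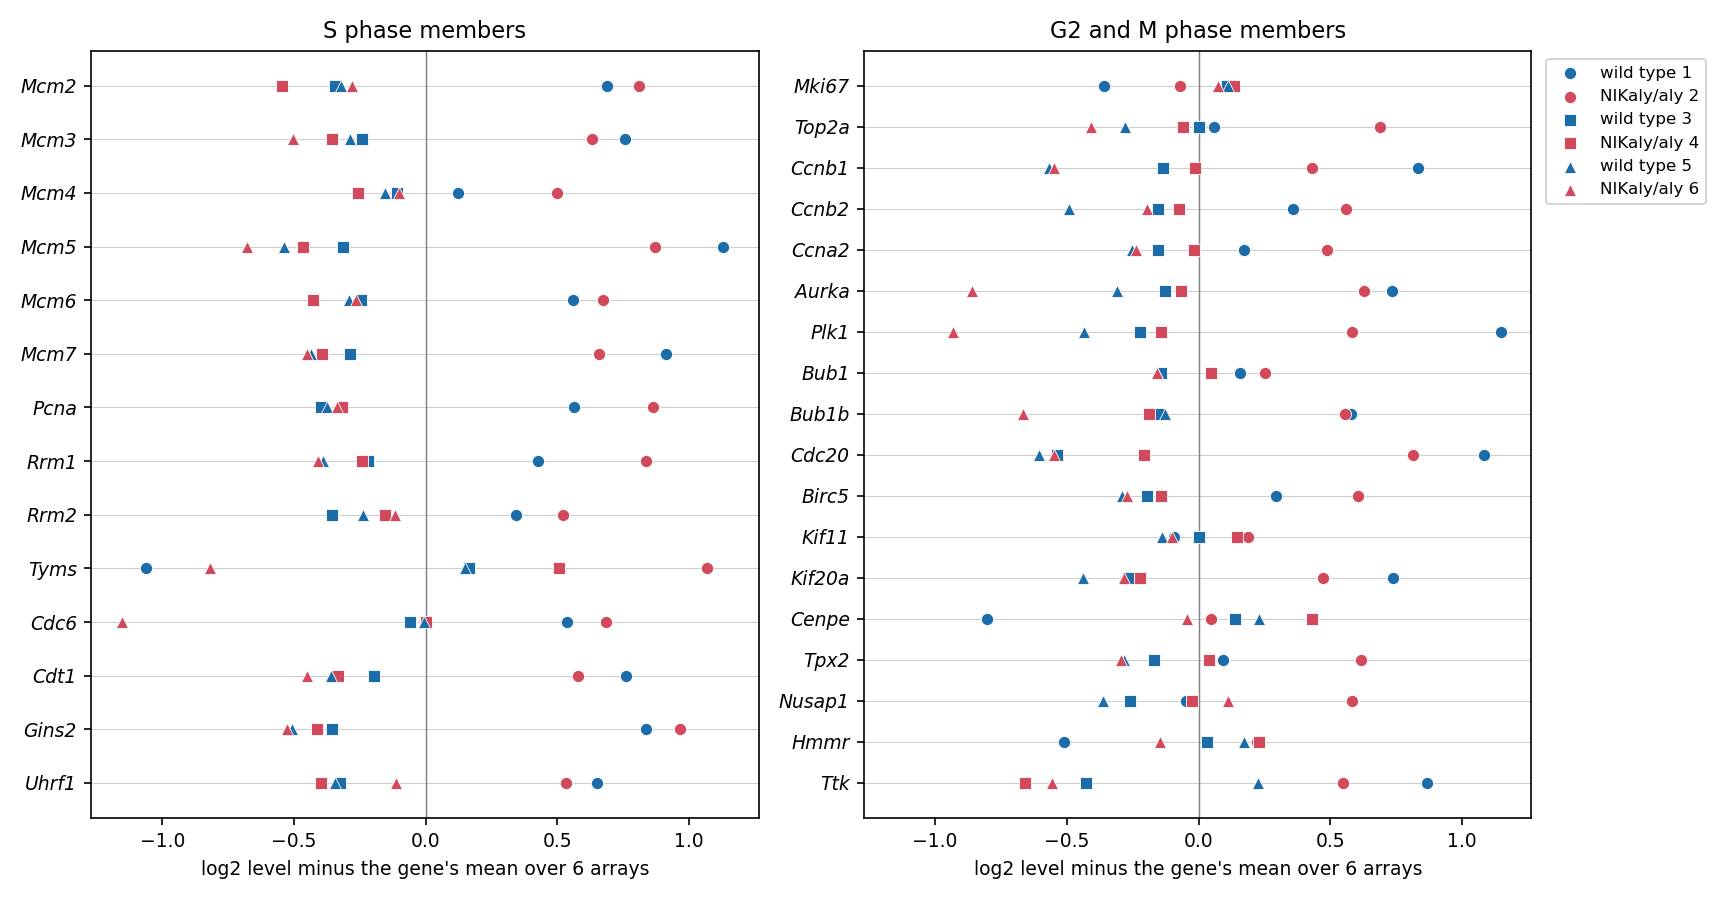
Level of each tested member on each array (x axis, log2, minus the gene's mean over the 6 arrays). Blue marks wild type, red NIKaly/aly, and the marker shape joins samples of consecutive number; samples 1 and 2 (circles) lie to the right of the other 4 in 13 of 14 S phase and 13 of 18 G2 and M phase members, and to their left in Mki67.

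The members differed in their range from the lowest to the highest array. It was 3.50-fold for Mcm5, 3.22-fold for Cdc20, 2.81-fold for Gins2 and 2.56-fold for Mcm2. For Plk1 it was 4.23-fold, with sample 6 the lowest. It was 1.33-fold for Bub1, 1.25-fold for Kif11 and 1.41-fold for Mki67, and neither Kif11 nor Mki67 had samples 1 and 2 above the rest. For Gins2, samples 1 and 2 read 3.099 and 3.23 and the other 4 between 1.74 and 1.91, with no array in between. The mean deviation of the S phase members from their own average was 0.52 on sample 1, 0.73 on sample 2, and between -0.24 and -0.44 on the others. For the G2 and M phase members it was 0.30, 0.46, and between -0.04 and -0.34. For all genes it was 0.13 and 0.11, and between -0.04 and -0.08.

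How many members kept this order depended on the processing, and in each of the 9 ways tried their share was above that of all genes. For S phase members it ranged from 57.1% to 100%, for G2 and M phase members from 33.3% to 72.2% and for all genes from 19.9% to 45.8%. The mean deviation relative to all genes does not depend on a scaling that moves all genes of an array alike. Median scaling, the percentile over probes well above background on all arrays and the authors' deposited table therefore in effect repeat its main value. They are no separate checks of it. Relative to all genes, the mean deviation of the S phase members was above 0 on sample 1 (0.04 to 0.43) and on sample 2 (0.38 to 0.73) in each way. That of the G2 and M phase members was above 0 on sample 2 (0.18 to 0.40) and of either sign on sample 1 (-0.17 to 0.18). On sample 6 both sets were below all genes in each way, at -0.82 to -0.23 and -0.56 to -0.17. Mki67 being below on samples 1 and 2 was lost with each array set to its median and with normexp background correction. The count of G2 and M phase members with samples 1 and 2 below the others was 5 of 18 with the percentile taken over probes well above background on all arrays (33.1% of all genes) and 2 of 18 with quantile normalization (22.5% of all genes).

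**Figure D4:**
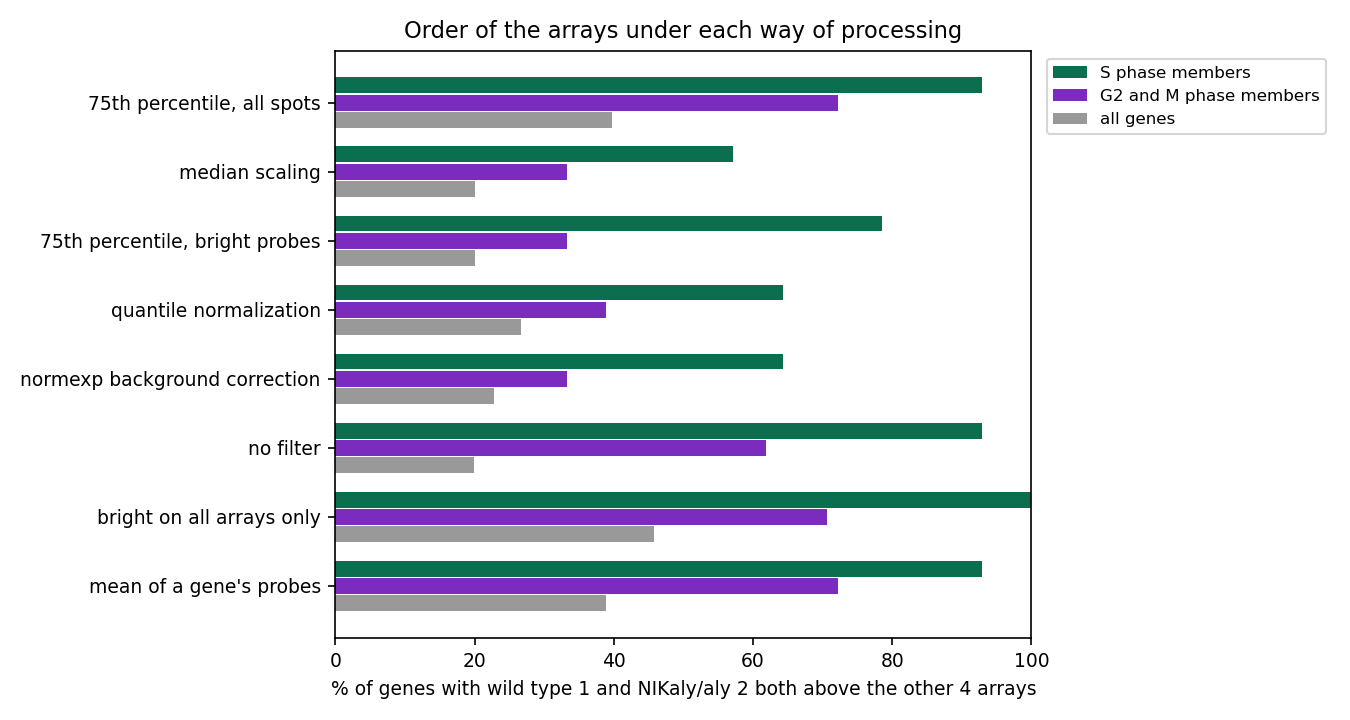
Share of genes (x axis, %) in which wild-type sample 1 and NIKaly/aly sample 2 were both above the other 4 arrays, for each way of processing (y axis; the authors' deposited table, which gives the same shares as median scaling, is left out). The share of S phase members (57.1% to 100%) and of G2 and M phase members (33.3% to 72.2%) exceeded that of all genes in each row.

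Markers of other cells moved with samples 1 and 2 as well, and their part in the members' levels was not tested. Of 14 erythroblast markers 10 were tested, the other 4 being too dim, and 8 of the 10 had samples 1 and 2 above the other 4. Hbb-b1, a beta globin, read 7.61, 2.48 and 2.90 in wild type and 6.51, 2.47 and 3.18 in NIKaly/aly. The summed erythroblast signal, in multiples of the 75th percentile, was 473, 56.6 and 62.6 in wild type and 305, 55.2 and 95.7 in NIKaly/aly. All 10 mature neutrophil markers were tested and 9 showed that order, with sums of 7614, 1140 and 3456 against 4398, 1247 and 4005. Granulocyte-monocyte progenitor markers showed it in 8 of 14, with sums of 1919, 820 and 953 against 1113, 629 and 654. The summed signal of the S phase members was 1007, 528 and 505 against 1018, 489 and 507, and that of the G2 and M phase members 325, 233 and 219 against 348, 252 and 215. B cell markers showed it in 8 of 9 tested, and macrophage and dendritic cell markers in 0 of 7. LSK and stem cell markers took the opposite order, samples 1 and 2 below the others, in 7 of 13 and the same order in 2 of 13. Kit read 4.65, 5.20 and 4.88 against 4.66, 5.17 and 5.45, with samples 1 and 2 the lowest. Ly6a read 3.67, 2.79 and 2.45 against 2.94, 2.44 and 1.503, and Cd34 7.53, 6.93 and 7.11 against 7.76, 7.43 and 7.31, both with samples 1 and 2 the highest. Between genotypes, all 14 granulocyte-monocyte progenitor and all 10 neutrophil markers read lower in NIKaly/aly, with medians of -0.40 and -0.17. So did all 9 tested B cell and all 7 tested macrophage and dendritic cell markers, with medians of -0.75 and -1.01. Csf1r is in both the progenitor and the macrophage list. Between samples 5 and 6 alone, 5 of 10 neutrophil and 6 of 9 B cell markers read higher in NIKaly/aly. Of the progenitor markers 2 of 14 did, and of the macrophage and dendritic cell markers 0 of 7. Other lists were mixed: erythroblast markers read lower in 7 of 10, T and NK cell markers in 6 of 8 and megakaryocyte markers in 3 of 6. Their medians were -0.26, -0.27 and -0.007. LSK and stem cell markers read higher in 9 of 13, with a median of 0.22. None of these markers passed limma with Benjamini-Hochberg adjustment.

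**Figure D5:**
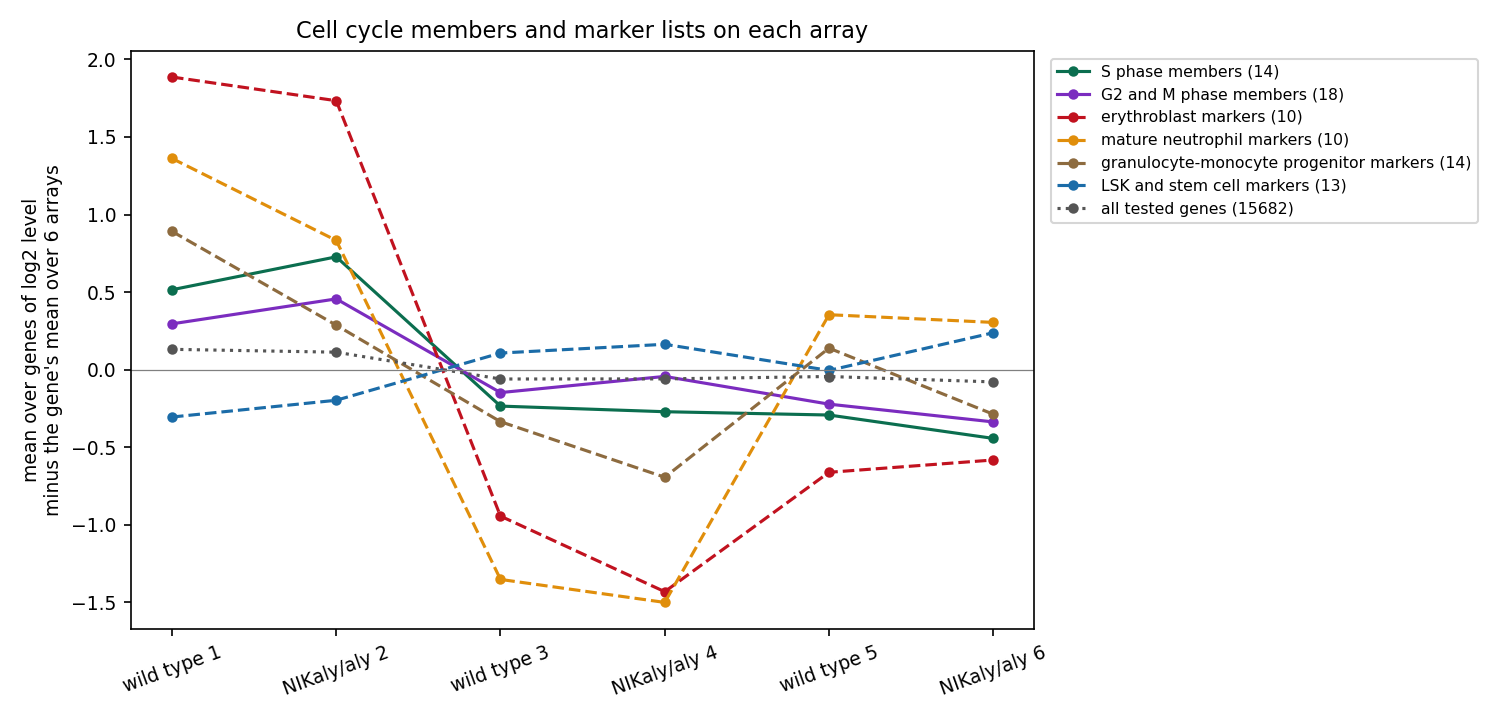
Mean over genes of the log2 level minus the gene's own mean (y axis) on each of the 6 arrays (x axis), for the S phase and G2 and M phase members (solid lines), 4 marker lists (dashed) and all tested genes (dotted). The members are highest on samples 1 and 2, as are the erythroblast, neutrophil and granulocyte-monocyte progenitor lists, and the LSK list is lowest there; lines join arrays for the eye only.

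Other genes of the same phases were read from longer lists. Of 56 further S phase genes 55 were tested: 34 read higher in NIKaly/aly and 21 lower, with a median difference of 0.03, and 0 passed limma with Benjamini-Hochberg adjustment or an unadjusted p under 0.05. Among the smallest p-values were those of Dscc1 (0.46 ± 0.33), a subunit of a clamp loader, Orc1 (0.47 ± 0.40) of the origin recognition complex and Rfc1 (0.34 ± 0.29) of the main clamp loader. Orc1 did not overlap between genotypes but was above background on only 1 wild-type and 2 NIKaly/aly arrays. Of 74 further G2 and M phase genes 72 were tested, 45 higher and 27 lower, with a median of 0.06 and again 0 past either threshold. There the smallest p-values belonged to the condensin subunit Ncapg2 (0.41 ± 0.25), separase Espl1 (-0.43 ± 0.28) and the microtubule-associated Ckap2 (0.44 ± 0.31) and Ckap5 (0.33 ± 0.25). Ncapg2, Ckap2 and Ckap5 were higher in NIKaly/aly without overlap, 3 of 72, and 0 were lower without overlap, where the shares over all genes were 2.68% and 1.89%. Samples 1 and 2 were above the other 4 in 41 of the 55 and in 50 of the 72.

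The E2F factors and their partners split evenly. Of 10 genes 8 were tested, 4 higher and 4 lower in NIKaly/aly, with a median difference of 0.03 and none called. Tfdp2, a dimerization partner, read -1.47, 0.23 and -0.36 in wild type and 0.18, 0.56 and 0.09 in NIKaly/aly, a difference of 0.81 ± 0.45, with sample 1 the lowest. E2f2 differed by -0.48 ± 0.44, E2f3 by 0.28 ± 0.39 and E2f7 by 0.13 ± 0.34. Samples 1 and 2 were above the other 4 in 2 of the 8.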

How the data were processed

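Total RNA of sorted LSK cells was amplified, labelled with Cy3 and hybridised, 1 sample per array, per the labels' protocols. Spot intensities were extracted by the authors with Agilent Feature Extraction 10.7.3.1 and deposited as processed signals, with probe positions on mm9, per the file headers. The authors' deposited table holds a ratio, the processed signal over the array's median, as a comparison of both files showed, and served as an alternative.

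From the deposited intensity, log2 of the processed signal was taken relative to the 75th percentile of the non-control spots of its array, without spots flagged as outliers. Spots of 1 probe were averaged. Probes well above background on at least 3 of 6 arrays were tested, and of several probes of a gene the brightest was kept, leaving 15682 genes. Genotypes (3 samples each) were compared by fits in limma 3.58.1 under R 4.3.3 (lmFit and eBayes with an intensity trend, 4 residual degrees of freedom, two-sided, Benjamini-Hochberg at 0.05), checked on simulated data. Consecutive samples as a block, other scalings, filters, weights and left-out samples were alternatives.

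The members, lists and motifs were chosen with earlier results of these data known. Values in every sample were given for members without overlap, the 5 per phase with the smallest p and the 3 per phase with the widest range. Of each other list the 4 smallest p were named, except 1 gene not reported here. Mki67, Pcna, Mcm2, Mcm6, Gins2 and the genes of the markers paragraph were added after their values were seen. Promoter sequences are RefSeq's. No annotation of mm9 was used, so the exons that probes lie in are not given.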

Additional observations from a re-analysis of the deposited data

How the results depend on the processing

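The labels share no sample number between the genotypes, so the block of consecutive numbers rests on the resemblance of the arrays and not on the design. No member was called under any of the 19 alternatives (lowest adjusted p 0.451, limma with Benjamini-Hochberg, Nusap1 under that block). Few genes were called at all: 10 of 15682 with median scaling, 9 of 15693 in the authors' deposited table and 5 of 15682 with array weights. Without a filter 2 of 34773 were called, and under the block of consecutive numbers 2 of 15682. With normexp, and again without sample 3, it was 1 of 15682. So few calls among all genes make the lack of a called member uninformative. The 13 members with 1 sign in all 3 comparisons of consecutive samples became 1 with median scaling, 2 with normexp and 1 in the authors' deposited table. They became 15 with the percentile over probes well above background on all arrays and 16 with quantile normalization. With a gene's probes averaged there were 14, without a filter 14, and with only probes well above background on all arrays 12. The block fits and the filters repeated the main difference of each named member that they kept. The authors' deposited table repeated the differences of median scaling. These repeats are counted among 244 comparisons of a named member with an alternative, so the count overstates how often a sign was put to the test. Of the 244 comparisons, 22 had the opposite sign, 16 of them on leaving out 1 sample. The others were Cdc6 at 0.17 with a gene's probes averaged and 0.10 within the first slide row, Tyms at -0.31 and Hmmr at -0.059 without samples 1 and 2, and Aurka at 0.0002 and Plk1 at 0.0013 with array weights. Leaving out 1 sample gave -0.50 to 0.19 for Mcm3, -0.67 to 0.33 for Mcm5, -0.052 to 0.38 for Rrm2, -0.73 to 0.19 for Cdc6, -0.56 to 0.18 for Aurka, -0.70 to 0.16 for Plk1, -0.36 to 0.59 for Cdc20, -0.040 to 0.48 for Cenpe and -0.0079 to 0.45 for Tpx2. Nusap1 stayed between 0.27 and 0.57 over all alternatives run, and Ttk between -0.83 and -0.10 over those that tested it. On leaving out 1 sample, Tyms ran from 0.094 to 1.04 and Hmmr from 0.0007 to 0.34. The S phase median ran from -0.39 without sample 2 to 0.31 without sample 1, and the G2 and M phase median from -0.10 without sample 2 to 0.27 without sample 6. Median scaling moved the median of all genes to 0.09, that of the S phase members to 0.10 with 9 of 14 higher, and that of the G2 and M phase members to 0.21 with 14 of 18 higher. Cdk1, Aurkb, Cenpf, Tyms and Ttk were limited by signal close to background.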
